A study of Homo sapiens with 20 samples.

Results

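Bone morphogenetic protein (BMP) signaling was followed through 10 genes in 5 human tumor cell lines that had been treated with G007-LK, a selective inhibitor of the tankyrases TNKS1 and TNKS2. The genes were picked by symbol as a named pathway group, with earlier results of these data known. Their counts beside those of all genes are therefore descriptive and not an independent test. All 10 were found among the 21201 gene symbols of the expression table. They comprise the ligands BMP2 and BMP4, the secreted antagonist GREM1, the pseudoreceptor BAMBI, the target genes ID1, ID2 and ID3, and the SMAD genes SMAD6, SMAD7 and SMAD9. Cells were grown for 24 h with 1 µM G007-LK or with 0.01% DMSO. The TNKSi-sensitive lines, chosen because G007-LK inhibited their growth, are the colon cancer line COLO 320DM, the renal cancer line UO-31, the ovarian cancer line OVCAR-4 and the lung cancer line ABC-1. RKO, a colon cancer line that G007-LK does not inhibit, served as the insensitive control. No genetic change was introduced into any line. Each of the 10 groups had 2 biological replicates, which makes 20 poly(A) RNA libraries. In a fit of 1 line, a p-value measures the spread between cultures of that line. In the fits over 20 libraries this spread is pooled over the lines. In the fit over the sensitive lines together, the spread also holds the differences in response between those lines.

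BMP ligands bind a complex of type I and type II receptors that phosphorylates receptor SMADs, among them SMAD9 (also called SMAD8), which enter the nucleus with SMAD4. The ID genes are classical immediate targets of this signal, and their proteins bind E proteins and keep them from DNA. SMAD6 and SMAD7, also targets, encode inhibitory SMADs that feed back on the receptors, while GREM1 protein captures the ligands outside the cell and BAMBI resembles a type I receptor without a kinase domain. BMP4 and BAMBI are also known as target genes of WNT/β-catenin signaling in colon cancer cells, the pathway that tankyrase inhibition dampens.

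Levels are given as RPKM (reads per kilobase of gene, scaled to the mapped reads of the library), as deposited, which allows a comparison between genes. Responses are G007-LK minus DMSO on log2(RPKM + 0.5), a scale that understates the change of low genes, with a standard error (SE) and an adjusted p from limma (two-sided, Benjamini-Hochberg over all genes of the line, threshold 0.05). Genes with a mean RPKM under 1 in a line were not tested there. ABC-1 and OVCAR-4 were shifted as a whole, with a median log2 difference over all genes of -0.14 in ABC-1 and of -0.11 in OVCAR-4, while the other lines lay between -0.04 and -0.01. Therefore each response also has a rescaled value, obtained after the libraries of the line were brought to equal median ratios. Whole reads behind the RPKM values were recovered for all 10 genes, except for SMAD6 in RKO G007-LK replicate 1 (0.0125 RPKM, 0 reads recovered). ID1 in OVCAR-4 rested on 9113 to 9534 reads a library, BMP4 in ABC-1 on 49 to 85, and GREM1 in ABC-1 on 4 to 6. A read was worth more RPKM in OVCAR-4 than elsewhere, as its libraries held 0.406 times the reads of COLO 320DM DMSO replicate 1 at the lowest. Of the tissue markers, 3 of 6 for colon epithelium reached 1 RPKM in COLO 320DM and 1 of 6 in RKO, 5 of 6 for kidney tubule did in UO-31, and 5 of 6 for ovarian serous cells in OVCAR-4. These lists did not separate the lines, since 4 of 6 kidney markers also reached 1 RPKM in OVCAR-4, with a higher sum (171 RPKM) than in UO-31 (121.7 RPKM), and ovarian markers did so in UO-31 (3 of 6) and ABC-1 (2 of 6). None of the 5 measured lung markers reached 1 RPKM in ABC-1, where they summed to 0.189 to 0.342 RPKM a library. Summed markers of blood and endothelium lay between 0.0157 and 6.73 RPKM in the 20 libraries.

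The promoters of BMP4, GREM1, BAMBI and ID3 are shown because they are the 4 of 9 member promoters searched that hold a motif, and they were chosen after that search. As deposited, BMP4, GREM1 and BAMBI fell with G007-LK in 2 or 3 lines, and ID3 rose in COLO 320DM and UO-31 and fell in ABC-1. ID1, ID2, SMAD6 and SMAD9, whose windows hold neither motif, rose in COLO 320DM and UO-31 as well. Each entry is the 250 bases before the RefSeq start site (RefSeq table of GRCh38.p14), placed on GRCh37 by exact match and read in the direction of the gene. Capitals mark GGCGCC, a GC-rich element bound by BMP SMADs, and CTTTGA, the TCF/LEF core, searched on both strands.

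BMP4 promoter, chr14:54421769-54422018, minus strand: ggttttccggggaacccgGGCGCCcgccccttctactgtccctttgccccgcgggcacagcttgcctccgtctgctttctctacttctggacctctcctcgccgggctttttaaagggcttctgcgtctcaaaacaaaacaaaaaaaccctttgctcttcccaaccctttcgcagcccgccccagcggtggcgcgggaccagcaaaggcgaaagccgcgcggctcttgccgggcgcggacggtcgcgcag
GREM1 promoter, chr15:33009955-33010204, plus strand: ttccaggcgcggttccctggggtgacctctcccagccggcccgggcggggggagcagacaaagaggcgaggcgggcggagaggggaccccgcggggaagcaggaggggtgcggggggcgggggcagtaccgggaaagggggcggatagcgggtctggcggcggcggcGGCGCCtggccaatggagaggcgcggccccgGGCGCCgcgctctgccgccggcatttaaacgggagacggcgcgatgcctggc
BAMBI promoter, chr10:28966200-28966449, plus strand: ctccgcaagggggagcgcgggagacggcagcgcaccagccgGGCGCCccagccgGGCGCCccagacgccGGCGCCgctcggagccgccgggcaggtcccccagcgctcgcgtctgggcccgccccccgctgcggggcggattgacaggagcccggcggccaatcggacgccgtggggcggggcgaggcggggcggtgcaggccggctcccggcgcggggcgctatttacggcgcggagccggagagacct
ID3 promoter, chr1:23885993-23886242, minus strand: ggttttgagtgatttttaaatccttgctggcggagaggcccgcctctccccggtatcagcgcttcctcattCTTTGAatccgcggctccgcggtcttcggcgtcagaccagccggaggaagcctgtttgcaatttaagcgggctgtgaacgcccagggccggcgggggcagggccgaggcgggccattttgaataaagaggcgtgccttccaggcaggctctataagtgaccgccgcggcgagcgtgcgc

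GGCGCC occurred in 3 of the 9 member promoters found in the RefSeq table, once in BMP4, 2 times in GREM1 and 3 times in BAMBI, against 16.4% of 35116 promoters of the same length. Its letters consist of G and C, and the BAMBI window held 81.2% G and C. CTTTGA was found in the ID3 window alone, against 11.2% of all promoters, and GGAATG, the TEAD core, in none of the 9, against 11.9%. In the GENCODE release 44 annotation on GRCh37, the BMP4 window is inside an intron of longer BMP4 transcripts and in an exon of another, unnamed gene, the GREM1 window is in an exon of GREM1-AS1, and the ID3 window is in no annotated exon. The last 11 bases of the BAMBI window are in an annotated BAMBI exon.

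With DMSO, the members differed widely between the lines. ABC-1 and RKO were grown in a minimum essential medium (EMEM) and the other lines in RPMI medium. Where the media of a pair differ, line and medium cannot be told apart. Of 96 differences in level tested over the pairs of lines, 89 passed the threshold, and 92 did after all 20 libraries were rescaled. The background was as high, since 84.1% of all tests passed (86.6% rescaled), so that the count says nothing particular about these genes. ID1 had the highest level of the members in OVCAR-4, ABC-1 and UO-31, and ID3 in COLO 320DM and RKO. The ID1 level was 624.8 RPKM in OVCAR-4, 184.8 in ABC-1, 92.4 in UO-31, 8.28 in RKO and 6.03 in COLO 320DM, and each step of this order passed the test, also after rescaling. ID2 ran from 83.7 RPKM in ABC-1 over 51.1 in OVCAR-4, 28.5 in UO-31 and 15.0 in COLO 320DM to 1.10 in RKO, but OVCAR-4 and UO-31 did not differ on the rescaled values (log2 difference 0.00, adjusted p = 0.955). For ID3 the mean was 15.2 RPKM in RKO, 63.1 in COLO 320DM, 84.7 in UO-31, 146.5 in ABC-1 and 151.4 in OVCAR-4. OVCAR-4 and ABC-1 did not differ as deposited (0.05, adjusted p = 0.489), and ABC-1 was higher after rescaling, with an OVCAR-4 minus ABC-1 difference of -0.91 (adjusted p = 2.7e-08). RKO thus had the lowest ID2 and ID3 of the 5 lines.

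The ligands and GREM1 also differed between lines. BMP4 with DMSO had 11.9 RPKM in UO-31 and 11.4 in OVCAR-4, which did not differ as deposited (0.06, adjusted p = 0.75) though they did after rescaling (0.85, adjusted p = 6.6e-06), then COLO 320DM (3.84), ABC-1 (1.70) and RKO (0.488). BMP2 reached 2.55 RPKM in UO-31, 1.52 in OVCAR-4 and 0.772 in COLO 320DM, the last pair not distinct after rescaling (0.04, adjusted p = 0.674). RKO had 1 and 3 BMP2 reads with DMSO and ABC-1 had 0 in both libraries. GREM1 was highest in OVCAR-4, at 27.7 RPKM, against 4.77 in COLO 320DM and 3.97 in UO-31. It was listed without a value in all 4 RKO libraries. COLO 320DM and UO-31 differed in GREM1 only on the rescaled values (0.29, adjusted p = 0.00118, against 0.23 and adjusted p = 0.102 as deposited).

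BAMBI with DMSO was highest in COLO 320DM (28.8 RPKM), then ABC-1 (16.5), OVCAR-4 (12.1), RKO (2.90) and UO-31 (2.69). The last pair did not differ as deposited (0.09, adjusted p = 0.421) and did after rescaling (0.24, adjusted p = 0.00849). SMAD6 stood at 34.3 RPKM in OVCAR-4, 6.07 in ABC-1, 4.70 in UO-31 and 4.46 in COLO 320DM, where UO-31 and COLO 320DM did not differ (0.07, adjusted p = 0.491). In RKO, SMAD6 lay between 0 and 0.0242 RPKM in the 4 libraries, around the worth of 1 or 2 reads. SMAD7 had 19.3 RPKM in UO-31 and 16.6 in OVCAR-4, a pair apart after rescaling alone (1.01, adjusted p = 1.5e-08, against 0.21 and adjusted p = 0.102 as deposited), followed by ABC-1 (4.68), COLO 320DM (1.19) and RKO (0.723). SMAD9 showed another order, with COLO 320DM (4.57 RPKM) and RKO (3.06) above UO-31 (1.49), OVCAR-4 (1.30) and ABC-1 (0.957). UO-31 and OVCAR-4 did not differ in SMAD9 as deposited (0.14, adjusted p = 0.285), and OVCAR-4 changed from higher than ABC-1 (0.31, adjusted p = 0.0273) to lower (-0.33, adjusted p = 9.9e-04) with rescaling.

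**Figure D1:**
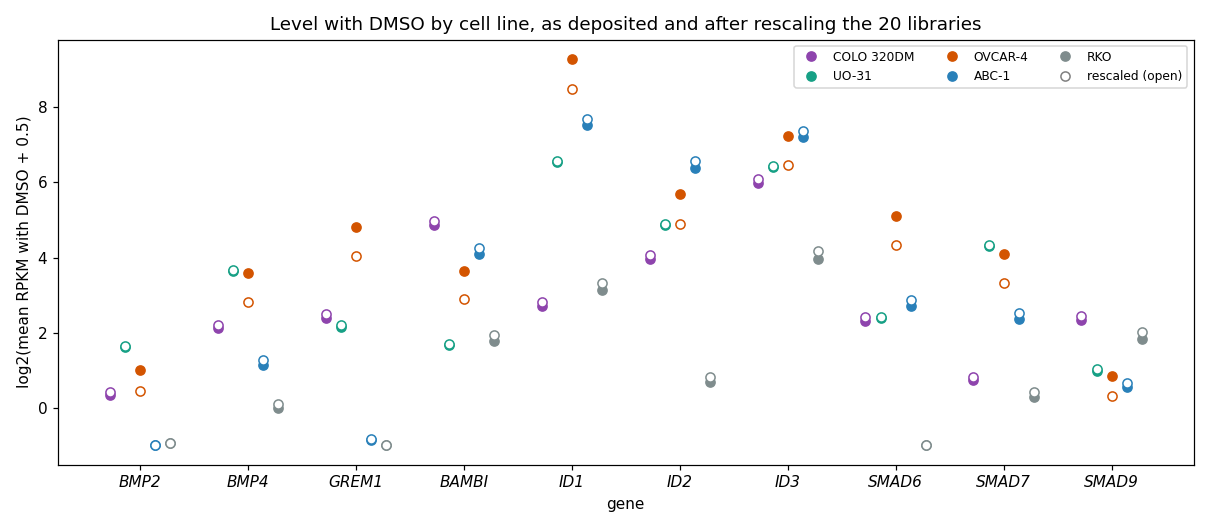
Mean level of each gene with DMSO on the log2(RPKM + 0.5) scale in the 5 lines, as deposited (filled) and after rescaling the 20 libraries to equal median ratios (open), n = 2 libraries a point. OVCAR-4 moves down with rescaling, from 624.8 to 360 RPKM for ID1, and RKO is the lowest or second lowest line, as deposited, for each gene but SMAD9.

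G007-LK changed members in each sensitive line, in different combinations. In COLO 320DM, 5 of 9 tested members rose (ID1, ID2, ID3, SMAD6 and SMAD9) and 3 fell (BMP4, GREM1 and BAMBI), where 7.7% of all 11279 genes tested rose and 11.6% fell. The same 5 members rose among 10 tested in UO-31 and none fell, against 4.79% and 8.63% of all genes. In OVCAR-4, 1 of 10 rose (ID2) and 5 fell (BMP4, GREM1, ID1, SMAD6 and SMAD7), against 12.6% and 39% of all genes. ABC-1 had 2 of 7 that rose (ID2 and SMAD7) and 3 that fell (BMP4, BAMBI and ID3), against 16.6% and 41.2% of all genes, so that the falls in OVCAR-4 and ABC-1 occurred on a high background. None of the 5 members tested in RKO passed the limma test, against 1.36% of genes higher and 2.75% lower. At an unadjusted p under 0.05, 2 of these 5 were different (ID1 and ID3, both higher), and 0 were called by the NOISeq rule. The shares of all genes at these criteria are not given here, so neither count has a background. The NOISeq rule sets each difference against those between replicates and takes a probability over 0.8. It was recomputed here from RPKM without the NOISeq package, so its calls are not those of the authors. That rule called 6 of the 24 limma calls over the lines, namely BAMBI and ID3 in COLO 320DM, ID2 in UO-31, BMP4 and GREM1 in OVCAR-4, and BAMBI in ABC-1. ID1 and ID3 passed in RKO with testing restricted to genes averaging 5 RPKM or more (adjusted p = 0.0485 and 0.0396), and ID3 also with a crossed replicate block (adjusted p = 0.0313).

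The median response of the tested members was 0.40 in COLO 320DM, 0.53 in UO-31, -0.19 in OVCAR-4, 0.08 in ABC-1 and 0.07 in RKO, against medians of all genes of -0.01, -0.04, -0.11, -0.14 and -0.02. On the rescaled values 5 members rose and 3 fell in COLO 320DM (all genes: 17.1% and 21.8%), 7 and 1 in UO-31 (12.6% and 18.1%), 3 and 3 in OVCAR-4 (23% and 24.4%), 3 and 2 in ABC-1 (28.6% and 34.7%), and 0 and 0 in RKO (1.56% and 1.07%). The calls rest on 2 libraries a group. Of the 24 calls over the lines, 10 held whichever library was left out: 5 of 6 in OVCAR-4, 3 of 8 in COLO 320DM, 2 of 5 in ABC-1 and 0 of 5 in UO-31. All 5 UO-31 calls were lost without either of its DMSO libraries, when the spread was estimated from 2 G007-LK libraries with a median log2 gap of 0.285 between them. The UO-31 calls also changed without either of its G007-LK libraries, and the BMP4 difference there was -0.76 without replicate 1 and -0.26 without replicate 2. In COLO 320DM, 2 members rose without G007-LK replicate 1 or without replicate 2, and 1 fell without replicate 2. ABC-1 had 1 member that rose and 1 that fell without G007-LK replicate 1, and OVCAR-4 had 2 that rose without DMSO replicate 2 or G007-LK replicate 1.

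**Figure D2:**
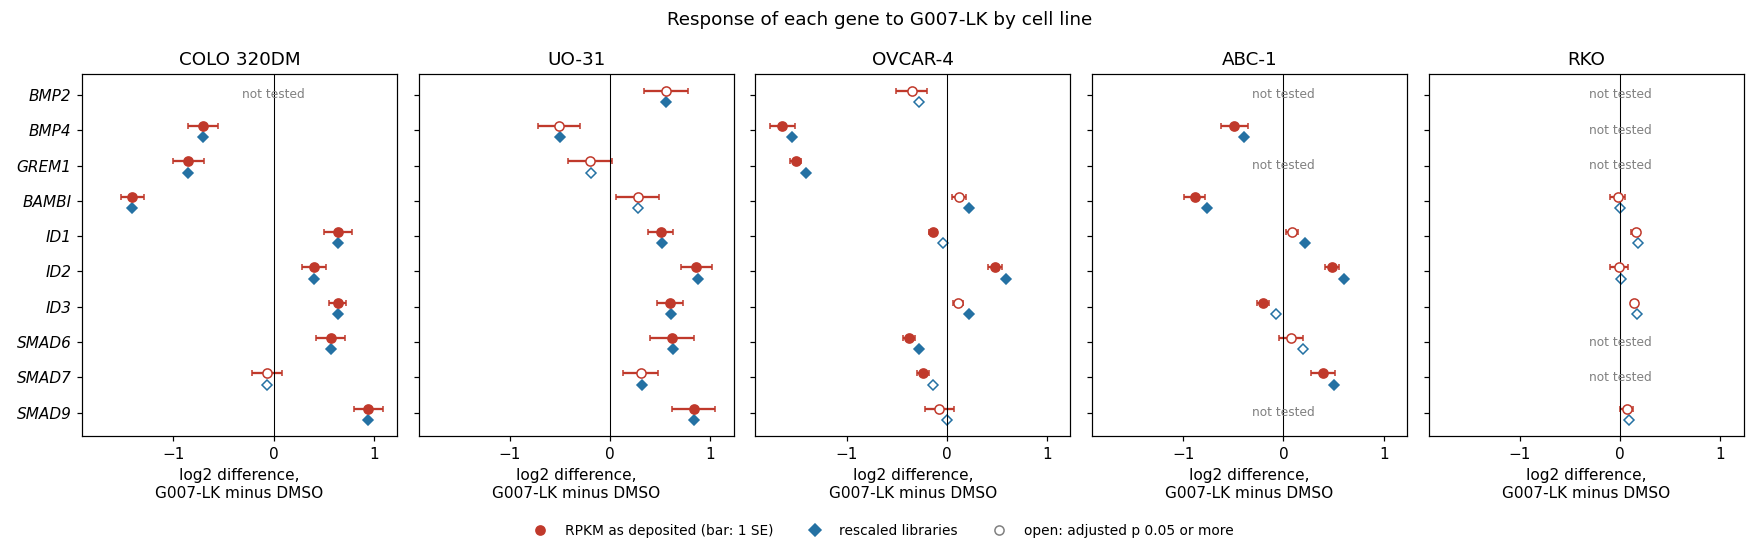
Log2 difference of G007-LK minus DMSO for each gene in each line, from RPKM as deposited (red circles, bars 1 SE) and from rescaled libraries (blue diamonds), with open symbols for an adjusted p of 0.05 or more and n = 2 libraries a group. BMP4 lies left of 0 in all 4 sensitive lines, ID2 right of 0 in all 4, and the RKO values between -0.02 and 0.16 as deposited, and up to 0.18 rescaled.

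BMP4, which encodes a ligand, was lower with G007-LK in all 4 sensitive lines, and no G007-LK library overlapped a DMSO library of its line. OVCAR-4 showed the strongest fall, with 2.83 and 3.89 RPKM with G007-LK, against 10.8 and 12.1 RPKM with DMSO. The log2 difference there was -1.64 (SE 0.13, adjusted p = 6.7e-06 by limma), or -1.55 rescaled. COLO 320DM cells had 2.36 and 1.98 RPKM with G007-LK, against 3.59 and 4.09 RPKM with DMSO, a difference of -0.70 (SE 0.15, adjusted p = 0.00292). ABC-1 gave 0.966 and 1.16 RPKM with G007-LK, against 1.53 and 1.86 RPKM with DMSO (-0.49, SE 0.13, adjusted p = 7.6e-04, rescaled -0.40 with adjusted p = 0.00769). Each of these calls was lost in 1 fit with a library left out, that of COLO 320DM without G007-LK replicate 2 (-0.60, adjusted p = 0.213) and that of ABC-1 without G007-LK replicate 1 (-0.40, adjusted p = 0.0802). In UO-31 the level was 9.81 and 6.84 RPKM with G007-LK, against 12.5 and 11.3 RPKM with DMSO. This difference of -0.51 passed the test on the rescaled values (-0.50, adjusted p = 0.00859) and not as deposited (adjusted p = 0.0838). It was -0.76 without G007-LK replicate 1 (adjusted p = 1.3e-05) and -0.26 without replicate 2 (adjusted p = 0.0152), while without either DMSO library it did not pass (adjusted p = 1). RKO had 0.370 and 0.485 RPKM with G007-LK, against 0.519 and 0.457 RPKM with DMSO, ranges that overlap, and was not tested. Over the 4 sensitive lines fitted together BMP4 fell by 0.84 on the log2 scale (SE 0.14, adjusted p = 2.0e-04). There 3 of 7 tested members rose and 2 fell, against 10.2% and 33.8% of all genes.

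BMP2, a ligand of the same subgroup, passed the test in no line as deposited. UO-31 had 4.45 and 3.52 RPKM with G007-LK, against 2.75 and 2.35 RPKM with DMSO, without overlap (0.55, adjusted p = 0.0757, rescaled 0.56 with adjusted p = 0.00832). OVCAR-4 had 1.19 and 0.983 RPKM with G007-LK, against 1.36 and 1.68 RPKM with DMSO (-0.35, adjusted p = 0.075, rescaled -0.27 with adjusted p = 0.161). The responses of these 2 lines differed from each other by 0.90 (UO-31 minus OVCAR-4, SE 0.16, adjusted p = 9.4e-04). COLO 320DM levels overlapped, at 0.704 and 0.797 RPKM with G007-LK, against 0.823 and 0.721 RPKM with DMSO. A single read was found in ABC-1, with G007-LK, and 5 and 2 reads in RKO with G007-LK, against 1 and 3 with DMSO, too few to compare.

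GREM1, the antagonist of BMP2 and BMP4, fell in OVCAR-4 and COLO 320DM. OVCAR-4 had 9.40 and 9.45 RPKM with G007-LK, against 27.3 and 28.1 RPKM with DMSO, a log2 difference of -1.51 (SE 0.06, adjusted p = 3.7e-09, rescaled -1.41). COLO 320DM had 2.52 and 2.29 RPKM with G007-LK, against 4.17 and 5.38 RPKM with DMSO (-0.85, SE 0.16, adjusted p = 8.8e-04), a call lost without G007-LK replicate 2 (-0.80, adjusted p = 0.0573). In UO-31 the groups overlapped, with 4.04 and 2.83 RPKM with G007-LK, against 4.04 and 3.90 RPKM with DMSO (-0.20, adjusted p = 0.655). That value was -0.42 (adjusted p = 0.0024) without G007-LK replicate 1 and 0.02 (adjusted p = 0.867) without replicate 2. All 3 pairs among these lines differed in response, the widest by 1.31 (UO-31 minus OVCAR-4, SE 0.18, adjusted p = 1.1e-04). ABC-1 had 4 and 5 GREM1 reads with G007-LK, against 6 and 5 with DMSO.

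BAMBI fell in COLO 320DM and ABC-1 and in no other line. COLO 320DM had 10.2 and 10.8 RPKM with G007-LK, against 27.8 and 29.8 RPKM with DMSO, a difference of -1.41 (SE 0.12, adjusted p = 1.4e-07). ABC-1 had 9.46 and 8.03 RPKM with G007-LK, against 16.2 and 16.8 RPKM with DMSO (-0.88, SE 0.10, adjusted p = 1.3e-16, rescaled -0.76). Both calls held whichever library was left out. UO-31 levels were 3.73 and 3.01 RPKM with G007-LK, against 2.71 and 2.66 RPKM with DMSO, without overlap, but the difference of 0.27 did not pass (adjusted p = 0.496). In OVCAR-4, 12.5 and 13.9 RPKM with G007-LK stood against 11.8 and 12.4 RPKM with DMSO (0.12, adjusted p = 0.158, rescaled 0.22 with adjusted p = 0.0148). RKO groups overlapped, with 2.74 and 2.95 RPKM with G007-LK, against 2.73 and 3.08 RPKM with DMSO (-0.02, adjusted p = 0.887). Of the 10 pairs of lines 7 differed in BAMBI response, the widest being COLO 320DM minus UO-31 at -1.68 (SE 0.15, adjusted p = 2.3e-06). The BAMBI response minus that of RKO was -1.38 for COLO 320DM (adjusted p = 1.3e-05) and -0.86 for ABC-1 (adjusted p = 9.1e-04). The value over the 4 sensitive lines, -0.47 (SE 0.18, adjusted p = 0.0412), passed as deposited and not rescaled (-0.40, adjusted p = 0.0877), and it did not pass without any single COLO 320DM or ABC-1 library (-0.46 to -0.38, adjusted p = 0.0698 to 0.0984), nor without the line COLO 320DM (-0.16, adjusted p = 0.413) or ABC-1 (-0.34, adjusted p = 0.272).

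ID2, whose protein sequesters E proteins, rose in all 4 sensitive lines by limma, and the NOISeq rule called it in UO-31 alone. UO-31 had 56.1 and 48.5 RPKM with G007-LK, against 29.1 and 27.9 RPKM with DMSO (0.86, SE 0.16, adjusted p = 2.0e-06). ABC-1 had 118.0 and 116.4 RPKM with G007-LK, against 84.9 and 82.5 RPKM with DMSO (0.48, SE 0.07, adjusted p = 2.9e-12, rescaled 0.61). OVCAR-4 had 67.7 and 75.3 RPKM with G007-LK, against 47.7 and 54.4 RPKM with DMSO (0.48, SE 0.07, adjusted p = 4.6e-04, rescaled 0.59). The COLO 320DM levels were 21.3 and 18.8 RPKM with G007-LK, against 14.4 and 15.6 RPKM with DMSO (0.40, SE 0.12, adjusted p = 0.0253). Leaving out G007-LK replicate 1 (0.32, adjusted p = 0.61) or 2 (0.49, adjusted p = 0.277) ended the COLO 320DM call, as did, for UO-31, leaving out DMSO replicate 1 (0.89, adjusted p = 0.345) or 2 (0.83, adjusted p = 0.485). RKO stood at 1.11 and 1.07 RPKM with G007-LK, against 1.10 and 1.10 RPKM with DMSO (-0.01, adjusted p = 0.967), at 41 to 44 reads a library. Each sensitive line differed from RKO in ID2 response, by 0.41 for COLO 320DM (adjusted p = 0.0342), 0.87 for UO-31 (adjusted p = 1.9e-04), 0.49 for OVCAR-4 (adjusted p = 0.0132) and 0.49 for ABC-1 (adjusted p = 0.0132). Over the 4 sensitive lines together ID2 rose by 0.56 (SE 0.07, adjusted p = 1.4e-05).

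ID1 and ID3 rose in COLO 320DM and UO-31 and not in OVCAR-4 or ABC-1 as deposited. For ID3, COLO 320DM had 97.7 and 99.4 RPKM with G007-LK, against 62.3 and 63.9 RPKM with DMSO (0.64, SE 0.08, adjusted p = 3.2e-05). ID3 in UO-31 had 131.9 and 124.8 RPKM with G007-LK, against 87.1 and 82.2 RPKM with DMSO (0.60, SE 0.13, adjusted p = 9.0e-05). In both lines every G007-LK library was above every DMSO library. OVCAR-4 had 161.4 and 166.2 RPKM with G007-LK, against 142.7 and 160.2 RPKM with DMSO (0.11, adjusted p = 0.0828, rescaled 0.22 with adjusted p = 0.00277). ABC-1 had 122.7 and 132.1 RPKM with G007-LK, against 146.5 and 146.6 RPKM with DMSO, a fall of -0.20 (SE 0.06, adjusted p = 0.003) that did not pass rescaled (-0.08, adjusted p = 0.336). The ABC-1 call was also lost without G007-LK replicate 1 (-0.15, adjusted p = 0.282) or 2 (-0.26, adjusted p = 0.053), and that of UO-31 without DMSO replicate 1 (0.64, adjusted p = 0.52) or 2 (0.56, adjusted p = 0.778). RKO had 17.2 and 16.4 RPKM with G007-LK, against 15.0 and 15.3 RPKM with DMSO (0.14, adjusted p = 0.0697), again without overlap. The ID3 response exceeded that of RKO by 0.50 in COLO 320DM (adjusted p = 7.8e-04) and by 0.45 in UO-31 (adjusted p = 0.00156).

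ID1 in COLO 320DM had 9.23 and 10.2 RPKM with G007-LK, against 6.47 and 5.60 RPKM with DMSO (0.65, SE 0.14, adjusted p = 0.00364). UO-31 had 132.7 and 130.0 RPKM with G007-LK, against 93.7 and 91.1 RPKM with DMSO (0.51, SE 0.13, adjusted p = 0.00121). Neither call held in every fit, as COLO 320DM gave 0.71 (adjusted p = 0.0964) and 0.58 (adjusted p = 0.257) without G007-LK replicate 1 or 2, and UO-31 gave 0.52 (adjusted p = 0.834) and 0.49 (adjusted p = 0.992) without DMSO replicate 1 or 2. In OVCAR-4, with the highest ID1 level, 549.8 and 586.0 RPKM with G007-LK stood against 611.8 and 637.8 RPKM with DMSO. This fall of -0.14 (SE 0.04, adjusted p = 0.00754) was near the shift of all genes in that line, did not pass rescaled (-0.03, adjusted p = 0.364) and was lost without DMSO replicate 2 (-0.11, adjusted p = 0.139). ABC-1 had 195.9 and 196.8 RPKM with G007-LK, against 188.6 and 181.0 RPKM with DMSO (0.09, adjusted p = 0.197), and the rescaled value passed (0.21, adjusted p = 0.0111). RKO had 9.26 and 9.33 RPKM with G007-LK, against 8.16 and 8.40 RPKM with DMSO (0.16, adjusted p = 0.077). Over the 4 sensitive lines the log2 difference was 0.28 for ID1 (SE 0.09, adjusted p = 0.0158) and 0.29 for ID3 (SE 0.09, adjusted p = 0.0188). Both calls were lost without the line COLO 320DM (ID1 0.15, adjusted p = 0.136, ID3 0.17, adjusted p = 0.172) or without UO-31 (ID1 0.20, adjusted p = 0.144, ID3 0.18, adjusted p = 0.184), and that of ID3 also with the replicate block (adjusted p = 0.0521).

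**Figure D3:**
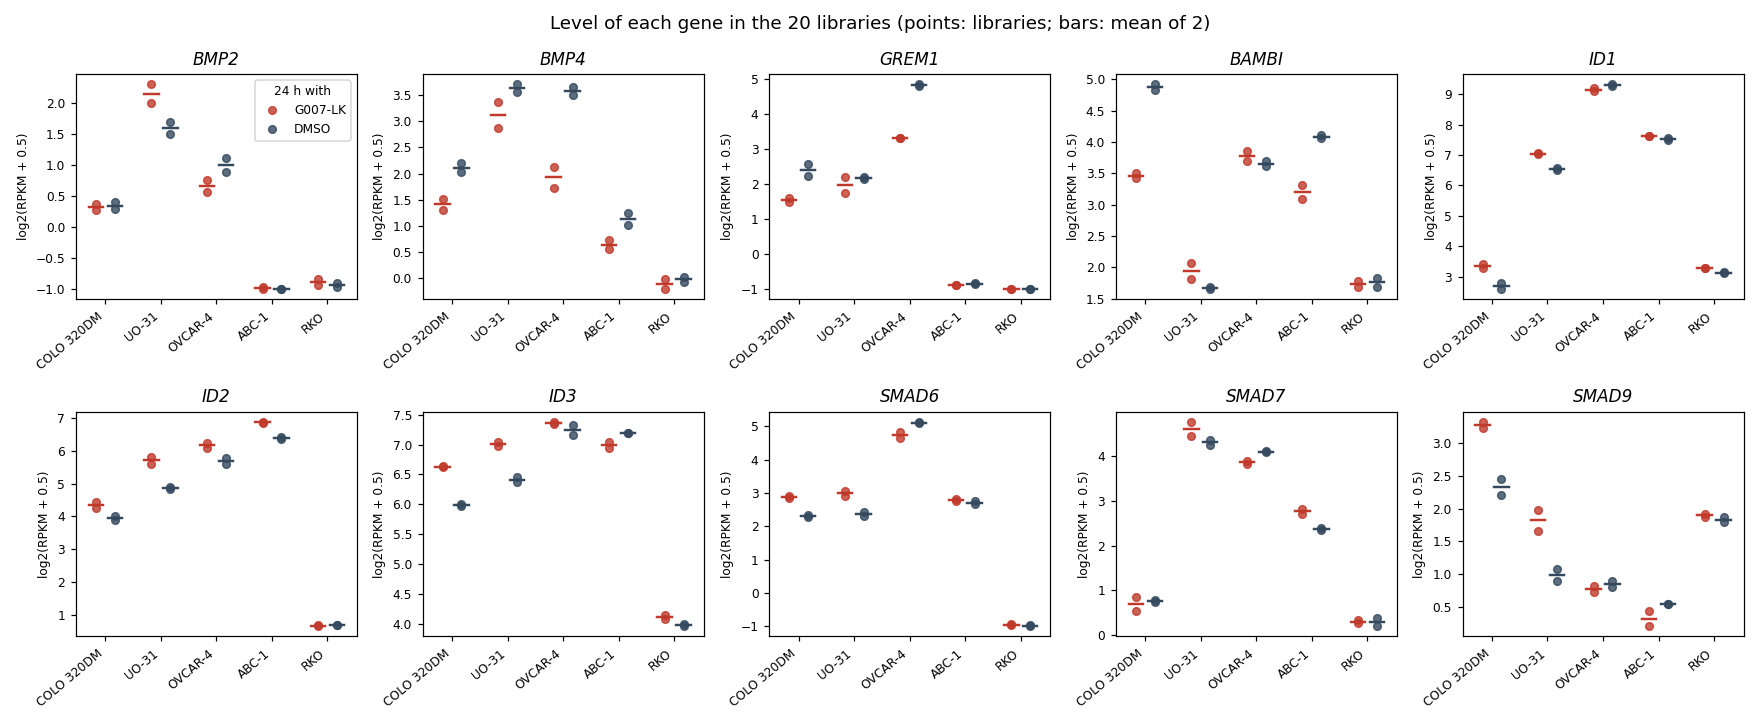
Level of each gene on the log2(RPKM + 0.5) scale in the 20 libraries, G007-LK in red and DMSO in dark blue, with points for libraries and bars for the mean of 2. The ID2 libraries with G007-LK lie above those with DMSO in each sensitive line (56.1 and 48.5 against 29.1 and 27.9 RPKM in UO-31), and those of BMP4 lie below (2.83 and 3.89 against 10.8 and 12.1 RPKM in OVCAR-4).

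SMAD9, the receptor SMAD, rose in COLO 320DM to 9.54 and 8.90 RPKM with G007-LK, against 4.15 and 5.00 RPKM with DMSO, a difference of 0.94 (SE 0.15, adjusted p = 1.9e-04) that held without any 1 library. UO-31 had 3.46 and 2.65 RPKM with G007-LK, against 1.61 and 1.36 RPKM with DMSO (0.83, SE 0.22, adjusted p = 0.00204). Without DMSO replicate 1 or 2 the UO-31 value was 0.92 (adjusted p = 0.702) or 0.74 (adjusted p = 1). Levels in OVCAR-4 overlapped, at 1.27 and 1.15 RPKM with G007-LK, against 1.25 and 1.35 RPKM with DMSO (-0.08, adjusted p = 0.685). RKO had 3.30 and 3.16 RPKM with G007-LK, against 3.15 and 2.98 RPKM with DMSO (0.07, adjusted p = 0.607), and ABC-1 had 0.848 and 0.651 RPKM with G007-LK, against 0.958 and 0.956 RPKM with DMSO, under the limit for a test. The SMAD9 response differed from that of RKO by 0.88 in COLO 320DM (adjusted p = 0.00215) and 0.77 in UO-31 (adjusted p = 0.00555).

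SMAD6, an inhibitory SMAD, moved in opposite directions. COLO 320DM had 6.68 and 7.06 RPKM with G007-LK, against 4.37 and 4.56 RPKM with DMSO (0.57, SE 0.14, adjusted p = 0.00863), and UO-31 had 7.87 and 7.10 RPKM with G007-LK, against 4.92 and 4.49 RPKM with DMSO (0.62, SE 0.22, adjusted p = 0.0386). In OVCAR-4, SMAD6 fell to 24.7 and 27.8 RPKM with G007-LK, against 34.7 and 33.8 RPKM with DMSO (-0.38, SE 0.06, adjusted p = 2.2e-04, rescaled -0.28 with adjusted p = 0.00247). ABC-1 levels overlapped, with 6.54 and 6.29 RPKM with G007-LK, against 6.32 and 5.81 RPKM with DMSO (0.08, adjusted p = 0.597). The response differed between UO-31 and OVCAR-4 by 1.00 (SE 0.13, adjusted p = 6.0e-05) and between COLO 320DM and OVCAR-4 by 0.95 (SE 0.13, adjusted p = 9.4e-05). Neither call held in every fit: COLO 320DM gave 0.61 (adjusted p = 0.215) or 0.53 (adjusted p = 0.334) without G007-LK replicate 1 or 2, and UO-31 gave 0.68 or 0.56 (adjusted p = 1 for both) without DMSO replicate 1 or 2.

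SMAD7, the other inhibitory SMAD, rose in ABC-1 to 6.58 and 6.04 RPKM with G007-LK, against 4.75 and 4.60 RPKM with DMSO (0.40, SE 0.12, adjusted p = 0.00234, rescaled 0.51), a call lost without G007-LK replicate 1 (0.34, adjusted p = 0.141). OVCAR-4 had 13.6 and 14.4 RPKM with G007-LK, against 16.5 and 16.7 RPKM with DMSO (-0.24, SE 0.06, adjusted p = 0.0058), and this fall did not pass rescaled (-0.14, adjusted p = 0.0596). UO-31 had 26.6 and 21.5 RPKM with G007-LK, against 19.9 and 18.6 RPKM with DMSO (0.30, adjusted p = 0.289, rescaled 0.32 with adjusted p = 0.0158). Neither COLO 320DM, with 1.30 and 0.948 RPKM with G007-LK against 1.16 and 1.21 RPKM with DMSO, nor RKO, with 0.703 and 0.756 RPKM with G007-LK against 0.646 and 0.80 RPKM with DMSO, separated the groups. OVCAR-4 minus ABC-1 was the widest difference in SMAD7 response, at -0.63 (SE 0.16, adjusted p = 0.0152).

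Across the members, 45 of 68 differences in response between pairs of lines passed the threshold, against 16.2% of all tests over genes and pairs. On the rescaled values 43 did, and the share of all tests on those values is not given here. By member, 8 of 10 pairs differed for ID3, 7 of 10 for BAMBI and for ID1 (3 of 10 for ID1 rescaled), 5 of 10 for ID2, 5 of 6 for SMAD6, 4 of 6 for SMAD9, 3 of 6 for BMP4, 3 of 3 for GREM1, 2 of 6 for SMAD7 and 1 of 1 for BMP2. OVCAR-4 differed from both COLO 320DM and UO-31 in BMP4, GREM1, ID1, ID3, SMAD6 and SMAD9. Of these genes, ABC-1 also differed from both lines in ID1, ID3 and SMAD6, and RKO did in ID1, ID3 and SMAD9. On the rescaled values, ID1 no longer separated ABC-1 from either line, nor RKO from UO-31. Pairs that share a line share its libraries, so these counts are not independent.

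Other genes of the pathway were followed in lists, with genes of low level left untested, and their counts stand against a background of all genes of 1.36% higher and 2.75% lower for RKO, 16.6% higher and 41.2% lower for ABC-1, 12.6% higher and 39% lower for OVCAR-4, 4.79% higher and 8.63% lower for UO-31, and 7.7% higher and 11.6% lower for COLO 320DM. The list of other BMP and GDF ligands also held BMP1, which encodes a protease and not a ligand, and was tested in each line. Of this list 1 of 4 tested rose and 1 fell in COLO 320DM, and 0 of 4 changed in UO-31. In OVCAR-4, 3 of 6 rose, BMP1 among them (0.23, adjusted p = 0.00784 by limma), and 1 fell. ABC-1 had 1 of 5 that rose and 2 that fell, and RKO had 1 of 3 that rose. GDF15, a stress-induced ligand, accounted for the rise in COLO 320DM, with a mean of 3.57 RPKM with G007-LK and 0.207 RPKM with DMSO (log2 difference 2.53, SE 0.15, adjusted p = 1.5e-09), and it rose by 0.75 in OVCAR-4, 0.65 in ABC-1 and 0.28 in RKO. BMP6, another BMP ligand, fell by 1.41 on the log2 scale in ABC-1 (2.54 RPKM with G007-LK and 7.58 RPKM with DMSO, adjusted p = 4.4e-29) and by 0.88 in COLO 320DM (adjusted p = 3.9e-04). BMP7, a ligand at 112.4 RPKM with G007-LK and 139.7 RPKM with DMSO in OVCAR-4, fell there by 0.31 (adjusted p = 1.2e-04).

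Of the extracellular antagonists other than GREM1, 3 of 7 tested fell in UO-31, 4 of 6 in OVCAR-4 and 5 of 6 in ABC-1, where 8.63%, 39% and 41.2% of all genes fell. None was higher in these lines, and the list had medians of -0.35, -0.51 and -0.96 against -0.04, -0.11 and -0.14 for all genes. FSTL1, a follistatin-like secreted protein, had 315.2 RPKM with G007-LK and 708.9 RPKM with DMSO in ABC-1 (-1.17, rescaled -1.04), and it fell by 0.71 in OVCAR-4 and by 0.35 in UO-31. It rose in COLO 320DM (0.33, adjusted p = 0.0128), the single antagonist of 5 called there, and 0 of 4 were called in RKO. CRIM1, a membrane protein that binds BMPs, fell by 1.33 in OVCAR-4 (34.5 RPKM with G007-LK and 87.5 RPKM with DMSO), by 0.81 in ABC-1 and by 0.54 in UO-31. SOSTDC1, a secreted antagonist of BMP and WNT ligands, fell by 1.32 in OVCAR-4 and by 1.10 in ABC-1, and FST, which encodes follistatin, fell by 1.47 in ABC-1 (5.64 RPKM with G007-LK and 16.5 RPKM with DMSO).

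Among receptors and co-receptors there were 1 of 10 higher in COLO 320DM, 0 of 11 called in UO-31, 1 higher and 3 lower of 12 in OVCAR-4, 3 higher and 3 lower of 12 in ABC-1, while RKO had 0 of 10. BMPR2, the type II BMP receptor, rose in COLO 320DM (3.14 RPKM with G007-LK and 2.02 RPKM with DMSO, 0.54, adjusted p = 0.0271) and fell by 0.18 in OVCAR-4 (adjusted p = 0.0494), and BMPR1A, a type I receptor, fell by 0.25 in OVCAR-4 (rescaled -0.15, adjusted p = 0.0263). Of the other SMADs and SMAD regulators, 2 of 23 rose and 1 fell in COLO 320DM, 0 of 24 changed in UO-31, 2 rose and 12 fell of 24 in OVCAR-4 (all genes 12.6% and 39%), 7 rose and 6 fell of 23 in ABC-1 (16.6% and 41.2%), and 1 of 22 fell in RKO. TGIF1, a SMAD corepressor, rose in ABC-1 by 1.07 (39.6 RPKM with G007-LK and 18.5 RPKM with DMSO, adjusted p = 6.1e-34). TOB1, which binds receptor SMADs, rose by 0.55 in COLO 320DM, by 0.56 in ABC-1 and by 0.21 in OVCAR-4.

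Of the other BMP target genes, 1 of 11 rose and 5 fell in COLO 320DM, 2 rose and 0 fell of 11 in UO-31, 3 rose and 2 fell of 12 in OVCAR-4 (all genes 12.6% and 39%), 4 rose and 5 fell of 10 in ABC-1 (16.6% and 41.2%), and 0 of 7 were called in RKO. The UO-31 pair was ID4, the fourth ID gene (1.91 RPKM with G007-LK and 0.560 RPKM with DMSO, 1.17, SE 0.21, adjusted p = 1.9e-06), and ATOH8, a transcription factor gene induced by BMP (0.68, adjusted p = 0.0173). At higher levels ID4 fell by 0.50 in ABC-1 (24.8 RPKM with G007-LK and 35.4 RPKM with DMSO, adjusted p = 1.9e-08) and rose by 0.18 in OVCAR-4 (105.1 RPKM with G007-LK and 93.0 RPKM with DMSO, adjusted p = 0.00793). RUNX2, an osteogenic transcription factor gene, fell by 0.88 in COLO 320DM and by 0.63 in OVCAR-4, and the homeobox gene DLX1 fell by 0.69 and 0.60 in these lines. In ABC-1, HES1, also a NOTCH target, rose by 1.12 and DLX5 by 1.08, while MSX1, a classical BMP target, fell by 1.03 (1.29 RPKM with G007-LK and 3.13 RPKM with DMSO, adjusted p = 4.3e-14). MSX2, of the same list and at a higher level, rose in ABC-1 by 0.77 (40.4 RPKM with G007-LK and 23.5 RPKM with DMSO, adjusted p = 6.9e-19). It also rose by 0.18 in OVCAR-4 (adjusted p = 0.02).

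The genes whose profile over the 10 groups was nearest to each member were found by the root mean square of centred log2 differences among 14198 genes. BAMBI was nearest to ENOX1 (0.32), ID3 to TRPV4 (0.22), BMP2 to ARMC4 (0.24), SMAD7 to APBA2 (0.27), SMAD9 to CDK5R1 (0.30), ID1 to RPS6KA2 (0.38), GREM1 to LZTS1 (0.38), SMAD6 to ZNF274 (0.42), ID2 to NR3C1 (0.44) and BMP4 to NFE2L3 (0.45). The members' own standard deviations over the groups ran from 0.93 (SMAD9) to 2.59 (ID1), and pairs of groups share a line.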

How the data were processed

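Deposited RPKM values were made by the authors, who matched poly(A) RNA reads from BGI to the hg19 (GRCh37) gene set by SOAPaligner/SOAP2, allowing 2 mismatches. Program versions: not given in the sources used here. Deposited tables of the authors' NOISeq comparisons, which hold fold changes and probabilities, were not used. Missing values, 22.4% of the table, were taken as 0. Of 21610 entries, 8 without a symbol (at most 0.00134% of the RPKM) were left out, and rows of 371 repeated symbols were merged. Sums of RPKM ran from 367196 to 909187.

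Whole reads were recovered as the smallest whole numbers in the ratio of a gene's values, within 0.01 of whole, after the libraries' relative depth had been read from the steps of the lowest values. For a repeated symbol, only the row with values in the most libraries was used. Within a line, depth ran from 0.855 to 1.11 times that of DMSO replicate 1. Values in this unit are not counts, so no count model was used.

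limma 3.58.1 (statmod 1.5.0, R 4.3.3) was fitted to log2(RPKM + 0.5) with trend and robust estimation, G007-LK minus DMSO, per line (mean RPKM of at least 1), over the sensitive lines with the line as a block (passing in each), and over 20 libraries for differences in response (passing in both lines) and in level with DMSO (passing in either), adjusted over genes and the 10 pairs. Rescaling divided each library by its median ratio. Tables and figures were made in Python 3.11.15 (pandas 2.3.3, numpy 2.4.6, matplotlib 3.10.9). Each kind of limma fit on unscaled values was checked on simulated data with known changes. The simulated noise was independent between genes and held no shifts of whole libraries, unlike the real data. The rescaled fits and the NOISeq rule were not simulated.

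The members and gene lists were chosen with earlier results of these data known. All members are named. Of each list, up to 3 called genes with the largest change were eligible in each line, and not all of these are printed. BMP1, MSX2 and some values of named genes in further lines are given beside them. For each member the nearest profiles were eligible. Alternatives were pseudocounts of 0.1 and 1, no filter or a mean of at least 5, median ratio and quantile scaling, 1 fit over 20 libraries, 1 fit per pair of lines, 1 fit over the DMSO libraries, a replicate block, the NOISeq rule at 0.8, and leaving out each library or line. Equal sums of RPKM and a crossed replicate block were added after the data had been seen. Tissue markers were read as means over a line's libraries.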

Additional observations from a re-analysis of the deposited data

Results flagged for a closer look

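The response to G007-LK differed in at least 1 pair of lines for each of the 10 genes, by a test of the difference itself (limma over 20 libraries, adjusted over genes and pairs). Of all such tests over genes and pairs 16.2% passed, and the share of all genes with at least 1 such pair was not computed. The largest difference of each gene is given with its adjusted p and, in brackets, the rescaled difference. No explanation was tested.

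BMP2 in UO-31 minus OVCAR-4 differed by 0.90, adjusted p = 9.4e-04 (rescaled 0.82). BMP4 in OVCAR-4 minus ABC-1 differed by -1.15, adjusted p = 0.0024 (rescaled -1.08). GREM1 in UO-31 minus OVCAR-4 differed by 1.31, adjusted p = 1.1e-04 (rescaled 1.20). BAMBI in COLO 320DM minus UO-31 differed by -1.68, adjusted p = 2.3e-06 (rescaled -1.71). ID1 in COLO 320DM minus OVCAR-4 differed by 0.78, adjusted p = 3.0e-05 (rescaled 0.68). ID2 in UO-31 minus RKO differed by 0.87, adjusted p = 1.9e-04 (rescaled 0.90). ID3 in COLO 320DM minus ABC-1 differed by 0.84, adjusted p = 7.0e-06 (rescaled 0.68). SMAD6 in UO-31 minus OVCAR-4 differed by 1.00, adjusted p = 6.0e-05 (rescaled 0.93). SMAD7 in OVCAR-4 minus ABC-1 differed by -0.63, adjusted p = 0.0152 (rescaled -0.69). SMAD9 in COLO 320DM minus OVCAR-4 differed by 1.02, adjusted p = 6.6e-04 (rescaled 0.95).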

How the results depend on the processing

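Pseudocounts of 0.1 and 1 changed none of the 41 single responses. Rescaling by the median ratio ended 3 calls and made 6, quantile scaling ended 1 and made 7, and equal sums of RPKM ended 1 and made 6. Without a filter 3 calls were lost, and 1 fit over 20 libraries ended 2 and made 3. The NOISeq rule ended 18 and made none. In UO-31, 1 member fell under median ratio, quantile and equal-sum scaling and in the fit over 20 libraries, and 3 rose without a filter. In OVCAR-4, 3 rose under each of the 3 scalings and 3 fell under the median ratio, and in ABC-1, 4 rose under quantile scaling. Over the sensitive lines 1 fell under each scaling and without COLO 320DM, and 1 rose without COLO 320DM or without UO-31. At a mean RPKM of at least 5, 0 fell over these lines, as BMP4 and BAMBI were no longer tested. That filter left 1 lower member in COLO 320DM, 2 higher in RKO and 29 differences in response, out of fewer tests. Of the single responses still tested under it, 26 kept their outcome, 2 became calls and 0 lost a call. The NOISeq rule called 1 higher and 1 lower member in COLO 320DM, 1 higher in UO-31, 0 higher and 2 lower in OVCAR-4, and 0 higher and 1 lower in ABC-1.

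Replicate numbers carry no stated pairing, and the replicates' deviations correlated at 0.0551 in RKO, 0.00512 in OVCAR-4, -0.0208 in UO-31 and -0.254 in both other lines. With the replicate block 2 members rose in COLO 320DM, 2 rose in OVCAR-4 and 1 fell over the sensitive lines. A crossed replicate block, tried because of the negative correlations, gave 2 higher in UO-31 and 1 higher in RKO.

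Leaving out 1 library gave 2 to 5 higher and 1 to 3 lower members in COLO 320DM, 0 to 8 and 0 to 2 in UO-31, 1 to 2 higher in OVCAR-4, 1 to 3 higher and 1 to 3 lower in ABC-1, and 1 to 2 lower over the sensitive lines. Signs turned within -0.42 to 0.0202 for GREM1 in UO-31, -0.10 to 0.0498 for BAMBI in RKO, -0.0282 to 0.0105 for ID2 in RKO, -0.22 to 0.0935 for SMAD7 in COLO 320DM, and, for levels, -0.0250 to 0.14 for BMP4 (UO-31 minus OVCAR-4) and -0.0380 to 0.13 for ID3 (OVCAR-4 minus ABC-1). By scaling, signs turned for ID2 in RKO (0.0068 median ratio, 0.0065 equal sums), ID3 in ABC-1 (0.0059 quantile), and the levels of BMP2 in COLO 320DM minus OVCAR-4 (0.15 quantile, 0.14 equal sums), ID3 in OVCAR-4 minus ABC-1 (-0.91 median ratio, -0.97 quantile, -0.85 equal sums), SMAD6 in COLO 320DM minus UO-31 (0.29 quantile, 0.25 equal sums), SMAD7 in COLO 320DM minus RKO (-0.0280 quantile) and SMAD9 in OVCAR-4 minus ABC-1 (-0.33 median ratio, -0.73 quantile, -0.29 equal sums). The causes were not tested. All genes called ran from 214 to 5203 in COLO 320DM, 53 to 7475 in UO-31, 273 to 6934 in OVCAR-4, 1226 to 7817 in ABC-1 and 11 to 858 in RKO, against 2178, 1591, 6405, 6314 and 432.

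Each group holds 2 libraries, and a fit with 1 library in a group assumes that it varies like the other group. BMP2 and GREM1 in ABC-1 and BMP2 and SMAD6 in RKO had so few reads that a difference was not detectable at this depth.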

Other observations

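Genes of the neighbouring TGF-beta branch, whose ligands signal through other receptor SMADs, were counted in the same way, on a background of all genes of 1.36% higher and 2.75% lower for RKO, 16.6% higher and 41.2% lower for ABC-1, 12.6% higher and 39% lower for OVCAR-4, 4.79% higher and 8.63% lower for UO-31, and 7.7% higher and 11.6% lower for COLO 320DM. Of the TGF-beta and activin ligands, 2 of 5 tested rose in COLO 320DM, 1 of 3 fell in UO-31, 1 rose and 2 fell of 4 in OVCAR-4, 1 rose and 1 fell of 2 in ABC-1, and 0 of 2 were called in RKO by limma. TGFB2, a TGF-beta ligand, fell by 0.70 on the log2 scale in UO-31 (mean 43.6 RPKM with G007-LK and 69.4 RPKM with DMSO, adjusted p = 5.2e-05) and by 1.16 in OVCAR-4 (1.5 RPKM with G007-LK and 3.97 RPKM with DMSO, adjusted p = 8.2e-06). INHBE, an inhibin subunit gene, rose by 2.02 in COLO 320DM (3.56 RPKM with G007-LK and 0.50 RPKM with DMSO, adjusted p = 1.7e-08).

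Of the TGF-beta target genes there were 4 higher and 3 lower of 14 in UO-31, 5 and 5 of 13 in OVCAR-4, 3 and 4 of 9 in ABC-1, 1 and 1 of 5 in COLO 320DM, and 0 and 2 of 8 in RKO. CTGF, also a YAP target, fell by 2.11 in ABC-1 (5.69 RPKM with G007-LK and 26.2 RPKM with DMSO, adjusted p = 4.9e-90), by 0.82 in OVCAR-4, by 0.69 in UO-31 and by 0.35 in RKO. FN1, which encodes fibronectin, rose by 1.18 in UO-31 (849.0 RPKM with G007-LK and 367.1 RPKM with DMSO, adjusted p = 2.7e-10), and it fell by 0.57 in ABC-1 (adjusted p = 2.3e-17) and by 0.32 in OVCAR-4 (adjusted p = 0.00231). Among the E proteins and their partners, which ID proteins bind, TCF3 fell by 0.31 in COLO 320DM and by 0.36 in ABC-1, and ASCL2, a WNT target of intestinal stem cells, fell by 0.74 in COLO 320DM and rose by 0.61 in ABC-1 and by 0.46 in OVCAR-4.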
